A study of Mus musculus with 10 samples.

Results

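The genes described here mostly encode mitochondrial enzymes that burn fatty acids and run the citrate cycle. Also included are a carrier (Slc25a20), a regulator (Ppara) and enzymes found outside mitochondria, such as Idh1 and Mdh1. The genes were taken as a list of 39 gene symbols, 23 for fatty acid oxidation and 16 for the citrate cycle, out of 11130 genes with a named probe on the array. The list follows pathway membership, though it was chosen with earlier results of these data known. It was matched to probes by the array platform's gene annotation. The study set aortic arches from ApoE-/-,MyD88-/- mice (double-null here), without apolipoprotein E and without the Toll-like receptor adaptor MyD88, against arches from ApoE-/- mice (apoE-null), without apolipoprotein E alone. Both groups therefore carry the ApoE deletion, which raises plasma cholesterol, and the groups differ in MyD88. All 10 arrays had 2 colours and held aRNA from 1 mouse of each genotype, amplified with T7 polymerase. Arrays came in 5 dye-swapped pairs, each pair of arrays repeating 1 pair of mice.

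For 8 of the 10 arrays the labels state 8 weeks of high fat diet, and the 2 arrays without that statement hold mice that other labels place on it. Ages are not stated in the labels. Pair 1 was 2 females, pairs 2, 3 and 4 were males, and in pair 5 the double-null mouse was male and the apoE-null mouse female. In pair 1 the 2 arrays name the same mice, 7 and 8, with exchanged genotypes; the stated genotype of each channel was used, and the ratios of these 2 arrays correlated with r = 0.58 over 3190 genes (0.069 in pair 3 to 0.44 in pair 5 elsewhere). Values were present for 4581 to 7057 of 13872 probes on an array. Myd88, the deleted adaptor, had log2 ratios of -1.06, -0.57, -0.81, -1.15 and -0.90 in pairs 1 to 5 (double-null over apoE-null), with a mean of -0.90 ± 0.22 (SD, n = 5 pairs) and a limma adjusted p of 0.027. The labels do not say whether its probe lies in the deleted part.

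Long-chain fatty acids enter mitochondria as carnitine esters and are shortened by rounds of dehydrogenation, hydration, a second dehydrogenation and thiolysis. The acetyl-CoA released joins oxaloacetate in the citrate cycle, whose dehydrogenases, with the electron transfer flavoprotein, feed the respiratory chain. These enzymes are abundant in brown fat, heart and other oxidative tissues, and perivascular fat around the aorta holds adipocytes rich in mitochondria. Many of the genes are known targets of the nuclear receptors PPAR alpha and ERR alpha, which bind elements built on the half-site AGGTCA, and mitochondrial genes in general are known targets of NRF1, whose core site is GCATGCGC.

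Promoters are shown first, as a description of the letters near the start sites. Any part of these regulators in the ratios below was not tested. RefSeq promoter windows on GRCm38.p6, 250 bases before to 50 after the start, were found for 25 of the 27 measured members, all but Crat and Idh3a. Both strands were searched for exact letters. The stretches below lie upstream of the start of the 4 fatty acid oxidation genes that hold the NRF1 core. Capitals mark a match on either strand. In Etfdh and Ppara an overlapping match on the other strand is not marked in full:
Acadm, chr3:153944764-153944831, minus strand: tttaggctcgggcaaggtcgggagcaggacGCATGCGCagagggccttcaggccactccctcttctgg
Etfa, chr9:55512311-55512378, minus strand: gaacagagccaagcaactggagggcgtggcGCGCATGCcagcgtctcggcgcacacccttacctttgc
Etfdh, chr3:79628856-79628923, minus strand: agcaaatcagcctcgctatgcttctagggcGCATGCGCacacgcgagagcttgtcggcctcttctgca
Ppara, chr15:85735717-85735775, plus strand: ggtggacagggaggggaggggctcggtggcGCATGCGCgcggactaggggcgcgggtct

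The NRF1 core was present in 4 of 15 fatty acid oxidation promoters and in 0 of 10 citrate cycle promoters. Over all 27025 genes with a RefSeq promoter window, 3.05% had it. A gene was counted if any of its windows held the letters. These counts describe letters in a window and carry no test. The half-site AGGTCA was found in 5 of the 25 promoters, those of Cpt1a, Acadvl, Acadm, Sucla2 and Fh1, against 18.1% of all genes with a window. The following 4 stretches show it in capitals, read as TGACCT where it lies on the other strand; the transferase gene Cpt1a is included because its ratios departed from those of the others:
Cpt1a, chr19:3323177-3323242, plus strand: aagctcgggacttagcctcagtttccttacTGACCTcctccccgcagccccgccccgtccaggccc
Acadvl, chr11:70015480-70015545, minus strand: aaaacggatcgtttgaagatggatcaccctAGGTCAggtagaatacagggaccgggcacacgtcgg
Sucla2, chr14:73552597-73552662, plus strand: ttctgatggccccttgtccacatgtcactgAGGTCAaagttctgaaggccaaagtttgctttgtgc
Fh1, chr1:175625788-175625853, minus strand: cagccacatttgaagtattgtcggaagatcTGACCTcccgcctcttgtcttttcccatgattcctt

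The longer ERR element TCAAGGTCA, which contains that half-site, was in 0 of the 25 promoters and in 0.466% of all genes with a window. The element AGGTCANAGGTCA, a direct repeat of the half-site known as the PPAR response element, was likewise in 0 of 25, against 0.0481% of all genes. The GC box GGGCGG was in 12 of 15 fatty acid oxidation and 7 of 10 citrate cycle promoters, against 38.2% of all genes. The CCAAT box was in 6 and 5 of them, against 41.1%. A missing match says only that these exact letters are not in this window.

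Of the 39 members, 27 were measured in at least 3 mouse pairs, 16 of fatty acid oxidation and 11 of the citrate cycle. No probe carried the symbol of 8 members: Acsl1, which activates long-chain fatty acids, Hadha and Acaa2 of the later oxidation steps, Acat1, Idh2, Idh3b, Idh3g and Ogdh. Another 4 had probes with too few values, with 0 array values for Echs1 and Decr1 and 1 each for Ehhadh and Pdhb. Blank cells were frequent on these arrays, at 49.1% to 67.0% of probes, and the labels do not say why a cell is blank. Of the 27, 22 had values on every array. The ratio of a pair below is the mean of its 2 arrays as log2 of double-null over apoE-null, so that 1 is a doubling in the double-null mouse.

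The 2 pathways had similar median ratios in pairs 1 to 4 and medians of opposite sign, near 0, in pair 5, and the ratios changed sign from pair to pair. Fatty acid oxidation genes had medians of 1.53, -0.18, -0.25, 0.88 and -0.19 in pairs 1 to 5. Citrate cycle genes had medians of 1.43, -0.31, -0.22, 0.83 and 0.046. The median over all genes tested stayed between -0.084 and -0.0021 in every pair. In pair 1 the double-null mouse thus had 2.88-fold and 2.69-fold higher median levels for the pathways, in pair 4 1.84-fold and 1.77-fold, and in the other 3 pairs the medians lay within 1.24-fold of equality.

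**Figure D1:**
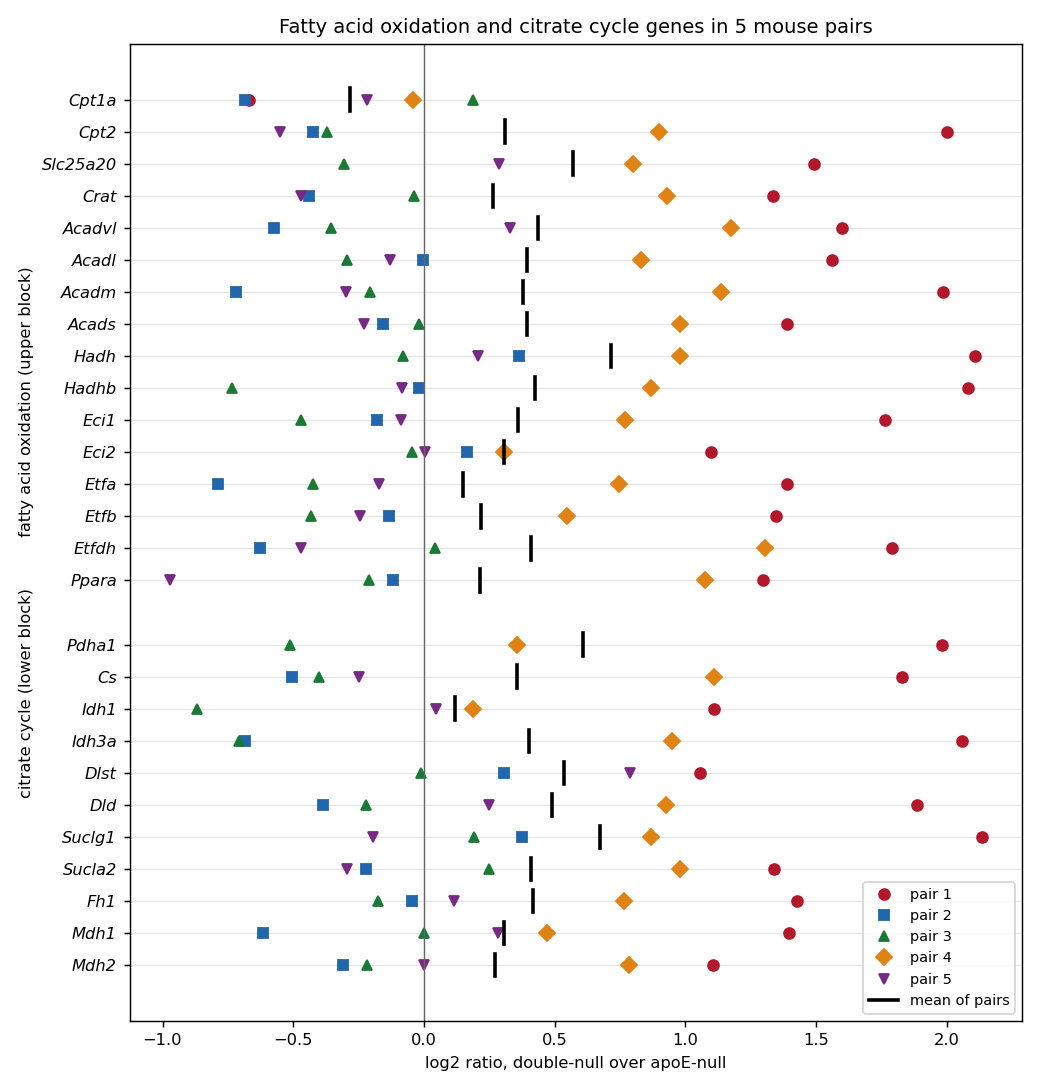
Each point is 1 mouse pair's log2 ratio of double-null over apoE-null (x axis) for 1 gene (y axis), with fatty acid oxidation genes in the upper block and citrate cycle genes in the lower, and the black bar is the mean over pairs. Pair 1 lies farthest right for nearly every gene, pair 4 next, and the other pairs lie around 0; Cpt1a is the exception, with pairs 1 and 2 at -0.67 and -0.68.

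No member passed the test of genotype over the 5 pairs. In the limma test of pair ratios against 0, with Benjamini-Hochberg adjustment over 4299 genes, 0 of 27 members passed 0.05, where 0.814% of all genes did (35 genes, 27 higher and 8 lower in double-null aorta). Adjusted p-values of the members ran from 0.46 to 0.895. Without adjustment 2 members were under 0.05, Dlst and Hadh, with limma adjusted p-values of 0.46 and 0.503, against 407 of all genes (9.47%). Mean ratios were above 0 for 26 of 27 members and for 1793 of all 4299 genes tested. Their median was 0.37 for fatty acid oxidation, 0.41 for the citrate cycle and -0.039 for all genes tested.

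These medians rested on pair 1: without it they were 0.0084 for fatty acid oxidation and 0.10 for the citrate cycle, and without pair 4 they were 0.22 and 0.27. The difference between the pathways, fatty acid oxidation minus citrate cycle, was 0.10, 0.13, -0.035, 0.056 and -0.24 in pairs 1 to 5. It averaged 0.0018 ± 0.149 (SD, n = 5), less than its spread over pairs. Since the members were chosen as a list with results known, these medians carry no test.

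The pairs themselves differed in the members that could be tested. The comparison was a moderated F-test (limma) over the 10 arrays that set the differences among pairs against the spread between dye-swapped arrays of a pair. All 22 members with values on every array passed at an adjusted p of 0.05, where 31.5% of the 3190 genes tested did. Their adjusted p-values ran from 2.43e-06 for Acadm to 0.0431 for Cpt1a. Calls were lost for Cpt1a with arrays centred on their medians (0.051) or without pair 2, 3 or 4 (0.0513 to 0.106), and for Acads with trend and robust settings (0.0863, moderated F-test). The spread in this test is technical, between hybridisations of the same extracts, so it shows that the extracts of the mouse pairs differed and says nothing of genotype. Without pair 1, 17 of 22 members still differed among pairs 2 to 5, against 15.2% of 3246 genes, and those that did not were Cpt1a, Acads, Hadh, Eci2 and Etfb.

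The size of this variation set the members apart from most genes measured. The SD over pairs had a median of 0.868 among members and 0.302 among all genes tested, and 24 of 27 members exceeded the 90th percentile of all genes, 0.618. A large spread was not particular to the members. The white and brown adipocyte markers described below had larger median SDs, of 1.04 in each list. The lowest SDs were those of Cpt1a (0.385), Eci2 (0.463) and Dlst (0.477), and the highest was that of Idh3a (1.35). Relative to the SD between arrays of a pair, the SD among pairs had a median ratio of 3.83 in members and 1.25 in all genes. The ratio was largest for Etfdh (11.1) and Acadm (10.2) and lowest for Acads (0.985).

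**Figure D2:**
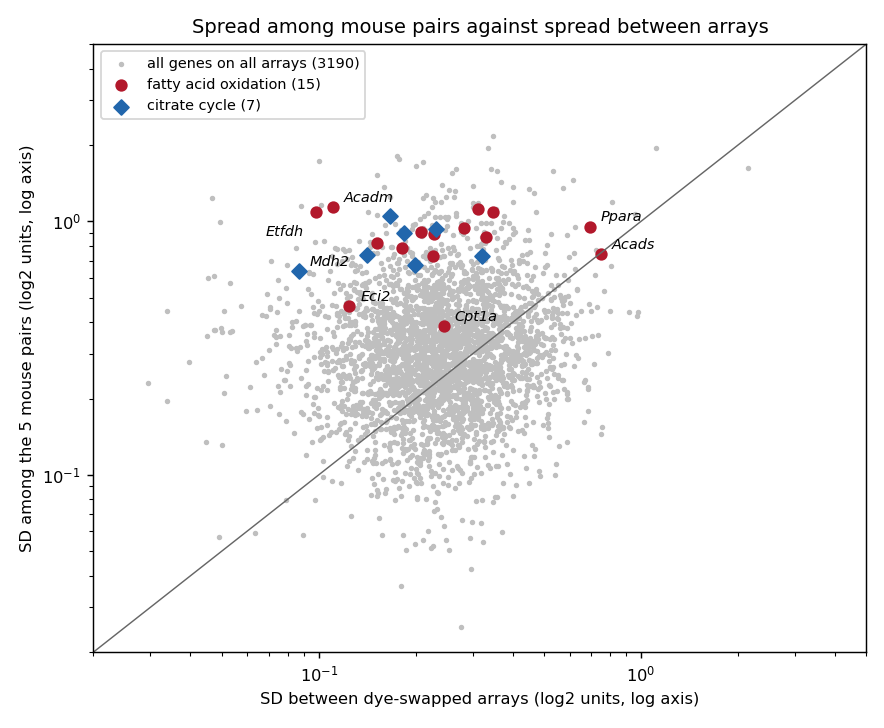
For each gene with values on all arrays, the SD among the 5 mouse pairs (y axis, log scale) is drawn against the SD between dye-swapped arrays of a pair (x axis, log scale), with all 3190 genes in grey, fatty acid oxidation genes as circles, citrate cycle genes as diamonds and the line of equal SDs. Most members lie at the top of the grey cloud, with Cpt1a and Eci2 lower and Acads and Ppara, whose arrays differed most, to the right.

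The order of the pairs was shared by the members. The highest of 5 pair values lay in pair 1 and the next in pair 4 for 21 of the 22 members with all 5 pair values, where 22.3% of all such genes were highest in pair 1 and 8.65% had this order. Cpt1a was the exception. This order was counted after the values had been seen and carries no test.

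Within a pair, the ratio can be tested against 0 with the same array-to-array spread. Such a test compares the extracts of 2 mice, not genotypes, and was added after the data were seen. In pair 1, 14 of 15 fatty acid oxidation genes and 7 of 7 citrate cycle genes were higher in the double-null mouse (15% of all genes were), and 1, Cpt1a, was lower (20.4% of all genes were). In pair 4, 11 of 15 and 6 of 7 were higher (5.05% of all genes) and 0 were lower (3.1%). In pair 2, 0 were higher (8.12%), and 5 of 15 and 2 of 7 were lower in the double-null mouse (11.7%): Cpt1a, Acadvl, Acadm, Etfa, Etfdh, Cs and Mdh1. In pair 3, 0 were higher (2.1%) and 1, Hadhb, was lower (2.82%). In pair 5, 0 were higher and 0 lower (3.7% and 3.7% of all genes). At unadjusted p-values under 0.05, members lower in the double-null mouse numbered 10 of 22 in pair 2 (20.1% of genes), 5 in pair 3 (9.94%), 0 in pair 4 (11.1%) and 4 in pair 5 (11.9%), and members higher numbered 1, 0 and 0 in pairs 2, 3 and 5 (14.9%, 7.81% and 8.03%).

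The carnitine shuttle was measured by 4 genes. Cpt1a, the outer-membrane carnitine palmitoyltransferase that controls entry and is inhibited by malonyl-CoA, had ratios of -0.67, -0.68, 0.19, -0.041 and -0.22 in pairs 1 to 5. It was the only member with a mean below 0 (-0.28 ± 0.38, SD, n = 5), and it was lower in the double-null mouse in pair 1 (adjusted p = 0.00921, limma within-pair test) and in pair 2 (0.0177). Cpt2, the inner-membrane enzyme that reverses the reaction, had 2.00, -0.42, -0.37, 0.90 and -0.55. The 2 transferases thus had opposite signs in pairs 1, 3 and 4 and the same sign in pairs 2 and 5. Only in pair 1 did both pass the within-pair test. Cpt1a did not pass it in pair 3 or 4 (adjusted p = 0.681 and 0.931, limma), and its arrays in pair 3 read -0.24 and 0.62. The signs in pairs 3 and 4 therefore show no clear opposition.

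Slc25a20, the carnitine-acylcarnitine translocase that joins the transferases, had 1.49, -0.31, 0.80 and 0.29 in pairs 1, 3, 4 and 5 and no value in pair 2. Crat, which makes acetylcarnitine from acetyl-CoA, had 1.33, -0.44, -0.04, 0.93 and -0.47. Both followed Cpt2 in pairs 1 and 4, and Slc25a20 differed from it in sign in pair 5. The muscle and brown fat isoform Cpt1b had too few values to be measured.

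The 4 acyl-CoA dehydrogenases, which take the first oxidation step for chains of decreasing length, were all measured on every array. Acadvl, the very-long-chain enzyme, had 1.60, -0.57, -0.36, 1.18 and 0.33. Acadl, for long chains, had 1.56, -0.0024, -0.30, 0.83 and -0.13. Acadm, for medium chains, had 1.98, -0.72, -0.21, 1.14 and -0.30. All 3 were high in pair 1 and pair 4 and below 0 in pairs 2 and 3; in pair 5 only Acadvl was above 0.

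Acads, the short-chain enzyme, had 1.39, -0.16, -0.019, 0.98 and -0.23, and in pair 2 its arrays read -1.48 and 1.16, so that pair's mean stands for no clear value. The means of the 4 dehydrogenases lay between 0.38 and 0.43, with SDs from 0.741 to 1.14 (n = 5). These means differed by far less than their spread over pairs.

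Later steps of the spiral were measured by Hadh and Hadhb. Hadh, the short-chain 3-hydroxyacyl-CoA dehydrogenase, had 2.11, 0.36, -0.079, 0.98 and 0.21, and a mean of 0.72 ± 0.868 (SD, n = 5), the highest of the members. Hadhb, the thiolase subunit of the trifunctional protein, had 2.08, -0.017, -0.73, 0.87 and -0.082. Hadh was above 0 in 4 of 5 pairs and Hadhb in 2. Without pair 1 the mean of Hadh was 0.37 and that of Hadhb 0.0092.

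Both enoyl-CoA isomerases, which bring double bonds of unsaturated chains into place, were measured. Eci1 had 1.76, -0.18, -0.47, 0.77 and -0.086, and Eci2, which also acts in peroxisomes, had 1.10, 0.17, -0.045, 0.30 and 0.0056. Eci2 had the smaller range, its value in pair 4 not passing the within-pair test (adjusted p = 0.297, limma).

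Electrons from the dehydrogenases pass through the electron transfer flavoprotein. Its subunits had 1.39, -0.79, -0.42, 0.74 and -0.17 (Etfa) and 1.35, -0.13, -0.43, 0.54 and -0.24 (Etfb). Etfdh, which hands the electrons to ubiquinone, had 1.79, -0.63, 0.041, 1.30 and -0.47. The 3 genes of this step were above 0 together in pairs 1 and 4 and below 0 together in pairs 2 and 5. Etfdh had the most repeatable arrays of the 3, with an array SD of 0.098 against 0.23 for each subunit.

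Ppara encodes the nuclear receptor that drives many of these genes. Its ratios were 1.30, -0.12, -0.21, 1.07 and -0.97, again highest in pair 1 and next in pair 4, and its pair 5 value was the lowest of any member there. The 2 arrays of a pair differed widely for this gene, reading 0.73 and 1.87 in pair 1 and -0.66 and -1.28 in pair 5, and its value in pair 5 had an adjusted p of 0.0621 in the limma within-pair test.

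Acetyl-CoA from pyruvate enters the cycle through pyruvate dehydrogenase. Its subunit gene Pdha1 had 1.98, -0.51 and 0.35 in pairs 1, 3 and 4, with blanks elsewhere. Cs, citrate synthase and a common measure of mitochondrial content, had 1.83, -0.51, -0.40, 1.11 and -0.25, and each of its 5 ratios lay within 0.42 of the median of the other citrate cycle members. Cs was higher in pair 1 (adjusted p = 1.41e-06) and pair 4 (0.00102) and lower in pair 2 (0.0445) in the limma within-pair test.

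Isocitrate dehydrogenases were covered by Idh3a, a subunit of the NAD-linked cycle enzyme, and Idh1, the NADP-linked enzyme of cytosol and peroxisomes. Idh3a had 2.06, -0.69, -0.71 and 0.95 in pairs 1 to 4. A second Idh3a probe, with 2 pair values, was left out by the rule of 3; it read 0.62 in pair 3, opposite in sign to the probe used, and 0.16 in pair 5. Idh1 had 1.11, -0.87, 0.19 and 0.046 in pairs 1, 3, 4 and 5, the lowest mean of the citrate cycle list (0.12 ± 0.809, SD, n = 4).

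The 2-oxoglutarate dehydrogenase complex was represented by Dlst, its succinyltransferase, and Dld, the dihydrolipoamide dehydrogenase it shares with pyruvate dehydrogenase. Dlst had 1.05, 0.30, -0.01 and 0.79 in pairs 1, 2, 3 and 5, and its pair 5 value was the mean of arrays that read 1.48 and 0.095. Dld had 1.89, -0.39, -0.22, 0.92 and 0.25. The genes disagreed in sign in pair 2 and both had values above 0 in pair 5.

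Succinyl-CoA synthetase makes GTP or ATP in the cycle. Suclg1, the subunit common to both forms, had 2.13, 0.38, 0.19, 0.87 and -0.20, the highest ratio of any member in pair 1. Sucla2, the ATP-specific partner, had 1.34, -0.22, 0.25, 0.98 and -0.30. Each of the 2 was above 0 in pair 3, where 22 of 27 members were below it.

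The last steps were measured by 3 genes. Fh1, fumarase, had 1.43, -0.047, -0.18, 0.76 and 0.11. Mdh2, the mitochondrial malate dehydrogenase, had 1.10, -0.31, -0.22, 0.79 and -0.00049, and Mdh1, its cytosolic counterpart in the malate-aspartate shuttle, had 1.40, -0.62, 0.0014, 0.47 and 0.28. Mdh2 was higher in pair 4 (adjusted p = 0.00694, limma within-pair test), whereas the difference of Mdh1 there missed the threshold (0.101).

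A limma test of the difference between orientations called a dye effect in 0 of the 27 members, where 4.82% of genes had one, and the lowest adjusted p was 0.0722, for Etfa. Without adjustment 3 members were under 0.05, against 21.2% of genes. Over members with values on every array and with double-null RNA in channel 1, the fatty acid oxidation median was 1.45, -0.17, -0.24, 0.61 and -0.28 in pairs 1 to 5, and with it in channel 2 it was 1.84, -0.39, -0.10, 1.05 and -0.20. The citrate cycle medians ran from 1.72 and 1.78 in pair 1 to -0.19 and -0.43 in pair 2. In pair 5 they were -0.071 and -0.042 over these 7 genes, whereas the median over all measured citrate cycle members there was 0.046, so its sign turned with the set of genes. In each pair both orientations gave the same sign for each pathway.

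**Figure D3:**
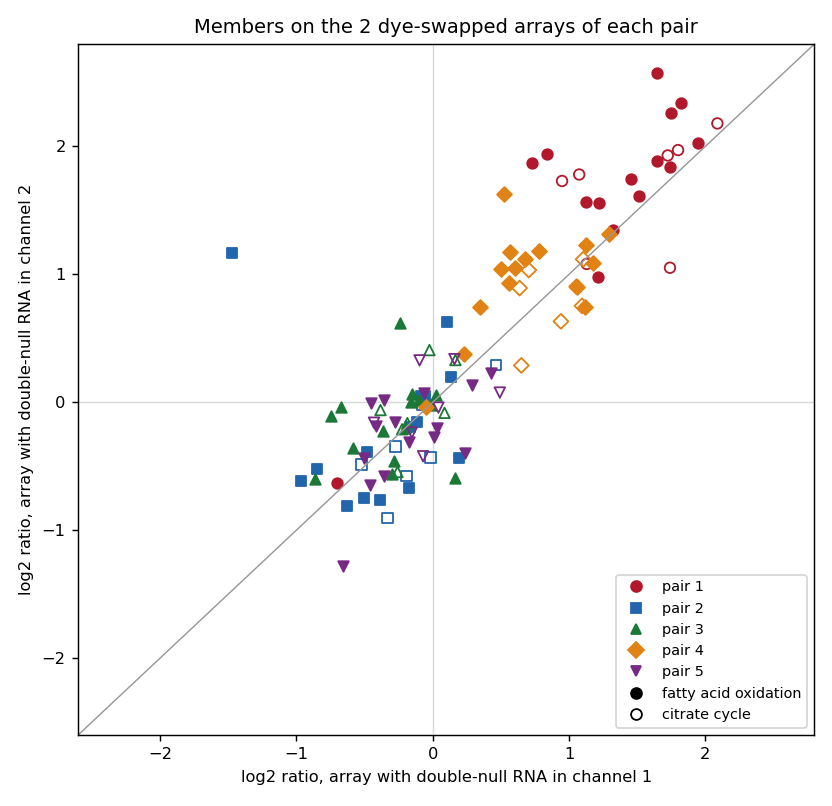
Each point is 1 of the 22 members with values on every array in 1 mouse pair, as log2 of double-null over apoE-null on the array with double-null RNA in channel 1 (x axis) and in channel 2 (y axis), with the line of equality. Pair 1 and pair 4 points lie in the upper right on both arrays, apart from Cpt1a; the square at the upper left is Acads in pair 2, with -1.48 and 1.16.

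The female pair could be set against the 3 male pairs, though with 1 female pair sex and that pair cannot be told apart. The members' high values in pair 1 had been seen before, and all the spread in this comparison comes from the 3 male pairs. In this limma comparison 0 of 23 members passed at 0.05, where 0.21% of genes did. Without adjustment 20 of the 23 were under 0.05, against 540 of 3336 genes (16.2%), and adjusted p-values ran from 0.119 (Suclg1) to 0.604 (Cpt1a). Suclg1 stood at 2.13 in the female pair and a mean of 0.48 in the male pairs.

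Other genes of the pathways were read from lists set by function. Of 42 further fatty acid oxidation genes 19 were measured, 0 passed the genotype test (limma), and the median of their mean ratios was 0.14. Without adjustment 2 of the 19 were under 0.05, a share near the 9.47% of all genes. Of those with values on every array, 11 of 14 differed among pairs, where 31.5% of all genes did. Fabp3, the fatty acid binding protein of heart and brown fat, had 1.94, 0.20, 0.05, 1.73 and 0.052. Cd36, the fatty acid transporter, had 0.94, -0.097, -0.52, 1.16 and 0.47, and these 2 genes were higher in pairs 1 and 4 than in the others, as most members were. Acot13, a mitochondrial thioesterase, had 1.28, 0.33, -0.091, 0.38 and 0.17, and Acadsb, which acts on branched chains, was above 0 in all pairs at 0.15 to 0.44 and did not pass the test among pairs (adjusted p = 0.742, moderated F-test).

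Regulators and targets of PPAR alpha were measured for 8 of 20 genes, with 0 called between genotypes (limma), 0 at an unadjusted p under 0.05, a median of 0.16, and 1 of 3 differing among pairs, a share near the 31.5% of all genes. Esrra, encoding ERR alpha, was at 1.27, -0.15, -0.50, 0.53 and 0.15. Pdk4, the kinase that shuts off pyruvate dehydrogenase when fat is burned, had 1.34, 0.69, 2.31 and -1.02 in pairs 1, 3, 4 and 5. Angptl4, a secreted inhibitor of lipoprotein lipase, had 0.64, 0.40, 1.46 and -0.33. These 2 targets were highest in pair 4 rather than pair 1, and lowest in pair 5. Rxrb, a partner receptor, ranged from -0.019 to 0.62.

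Further citrate cycle and pyruvate genes were measured for 14 of 32, with 0 called between genotypes (limma), 0 at an unadjusted p under 0.05, and a median of 0.19. Among pairs 6 of 11 differed, against 31.5% of all genes. Sdhd, a membrane anchor of succinate dehydrogenase, had 1.60, -0.082, -0.39, 0.82 and 0.13. Pcx, the pyruvate carboxylase that refills oxaloacetate, had 2.16, 0.21, -0.92, 0.94 and 0.15. Mpc1, the pyruvate carrier, had 1.73, -0.62, 0.34 and 0.38 in pairs 1, 3, 4 and 5. Those 3 shared the high value of pair 1 with the members, and Got2, the mitochondrial aspartate aminotransferase, did not, at -0.033, 0.91, 0.31, 0.019 and 0.057.

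Genes of the respiratory chain and ATP synthase, the next step in the route, had pair medians of 1.14, 0.20, -0.20, 0.33 and -0.023 over 56 genes, and 42 of 52 differed among pairs. Glycolysis genes had 0.55, -0.13, -0.21, 0.094 and 0.041 over 12 genes, with 6 of 11 differing. The share of all genes that differed among pairs was 31.5%. Both lists were highest in pair 1 like the members, at smaller ratios, and in pair 4 the members' medians of 0.88 and 0.83 were above both. These differences between lists were not tested.

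Adipocyte markers had their highest medians in pairs 1 and 4, as the members did, although the labels state that connective tissue was removed from the vessels. The white adipocyte markers, 15 of 22 measured, had pair medians of 2.19, -0.28, -0.46, 0.88 and -0.36, and 12 of 12 differed among pairs (31.5% of all genes did). Lpl, the lipoprotein lipase, had -0.39, -1.23, -0.41, 0.40 and -0.47, and was below 0 in pair 1, unlike the list. Scd1, a fatty acid desaturase, had 2.46, 0.12, -0.77, 1.00 and 0.79. Dgat1, which makes triglyceride, had 1.42, -0.17, 0.18, 0.88 and -0.14. Adipoq, the adipokine adiponectin, had 2.40, 0.36, 0.00053, 1.18 and -0.69, and these 3 were highest in pair 1 and next in pair 4. Retn, Fasn and Thrsp of that list were highest in pair 1 without sharing the rest of the order. Their next value lay in pair 2 for Retn (0.56) and in pair 5 for Fasn (2.23) and Thrsp (1.49). The brown adipocyte markers, 8 of 12 measured, had 1.79, -0.077, -0.42, 1.16 and -0.23, with 7 of 7 differing, and Ucp1, the uncoupling protein that defines brown fat, had 2.51, -0.46, -0.58, 2.04 and -0.56. Cidea, Cox7a1, Cox8b and Ebf2 of that list likewise had their highest value in pair 1 (1.24 to 2.68) and the next in pair 4 (0.93 to 1.52). Kcnk3 had the same order, at 1.35 in pair 1 and 0.34 in pair 4. Dio2 and Elovl3 did not. Dio2 was highest in pair 4 (0.48, with 0.39 in pair 1), and Elovl3 had 0.36 in pair 1 and -0.25 in pair 4. The part of adipocyte markers in the members' ratios was not tested. The arrays give ratios and no levels, and in whole tissue more cells of a type and more RNA per cell cannot be told apart.

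The medians of other cell types had other patterns across the pairs. Cardiac and skeletal muscle markers, 9 of 29 measured, had medians of -0.56, 1.42, -0.054, -0.098 and -0.28. The smooth muscle list, which marks the vessel wall itself, had medians of -0.50, -0.29, 0.31, 0.025 and -0.46 over 8 of 14 genes. These medians did not share the members' order of pairs. Tpm2 of that list did, at 0.70, 0.35, 0.31, 0.43 and -0.54. Macrophage markers, 18 of 22, had -1.13, -0.46, -0.68, -0.38 and 0.27; of these, Cd5l, a macrophage survival factor, was lower in double-null aorta (mean -2.02 ± 0.62, SD, n = 5; limma adjusted p = 0.0126). Endothelial markers, 8 of 12, had medians between -0.26 and 0.15, while single genes in pair 1 ran from -1.05 (Emcn) to 0.89 (Kdr). Kdr had 0.89, -0.050, -0.012, 0.63 and -0.26, with the members' order of pair 1 and then pair 4. The macrophage median was lowest in pair 1, the pair in which the members were highest; its part in the members' ratios was not tested.

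**Figure D4:**
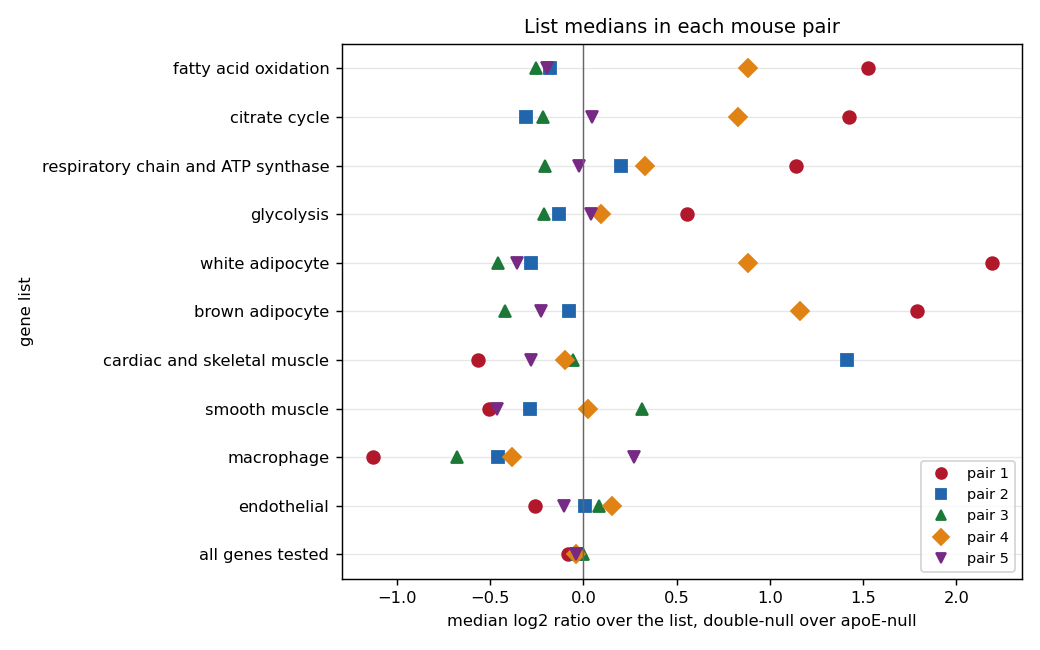
Median log2 ratio of double-null over apoE-null (x axis) over the measured genes of each list (y axis), with 1 point per mouse pair. Fatty acid oxidation, citrate cycle and both adipocyte lists have pair 1 and pair 4 to the right of the other pairs, cardiac and skeletal muscle markers have pair 2 to the right at 1.42, and all genes tested stay next to 0.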

How the data were processed

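The authors deposited 1 log2 ratio per probe and array, with apoE-null over double-null on all 10 arrays, per the labels' titles. Per the labels' protocols, GenePix Pro read the scans and GeneSpring served for the analysis; normalization and the filter behind blank cells are not stated there. Array means were near 0 (-0.0042 to 0.0027), and the lowest value, -6.64, is the log2 of a ratio of 0.01. Signs were turned to double-null over apoE-null, which rests on the titles; Myd88 was below 0 on 10 of 10 arrays.

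Probes with 1 symbol (12143) were named from the platform table, with 12009 updated through Entrez identifiers to RefSeq. The 2 arrays of a mouse pair were averaged to 1 replicate, both being needed, and a probe needed 3 pair values; probes of a gene were averaged. Tests used limma 3.58.1 in R 4.3.3 over all genes, two-sided, Benjamini-Hochberg adjusted, at 0.05: pair means against 0 (4299 genes), a moderated F-test among pairs with dye orientation as a covariate (3190 genes with values on all arrays), orientation differences, and pair 1 against pairs 2 to 4 (3336 genes). The fits were tested on simulated data. The labels number the mice, and no mouse number occurs in more than 1 pair; in pair 1 the 2 arrays give the numbers opposite genotypes. The number of mouse pairs limits precision.

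The members and lists were chosen with earlier results of these data known. All members with 3 pair values are named, and of each other list up to 4 genes with the smallest genotype p or none. Ucp1, Kcnk3, Dio2, Elovl3, Cpt1b, Retn, Acly, Fasn, Thrsp and Pck1 lie outside this rule and were chosen after their values were seen. Motifs were searched in RefSeq windows on both strands. The lists of cell type markers are described by counts and medians.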

Additional observations from a re-analysis of the deposited data

How the results depend on the processing

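No setting gave a member a genotype call: 0 of the members tested passed in each of 18 alternatives (a pair left out, dye orientations alone, centring, scaling, other filters, thresholds or probe rules, and array values with the mouse pair as a random replicate block, also 0). Over all genes the count of 35 became 0 to 17 when a pair was left out, 7 when 1 array of a pair was enough, 99 from channel 2 arrays alone, 60 with the replicate block, 0 with trend and robust empirical Bayes settings, whose trend ran on mean ratios for want of intensities, 3 without genes with a dye effect and 62 at 0.10. Differences among pairs were called in 17 to 23 of 22 to 24 members when a pair was left out, and over all genes in 493 to 1024 of 3246 to 3574. They were called in 21 of 22 members with median centring or with trend and robust settings. Over all 3190 genes these 2 settings gave 981 and 1079 calls. For pair 1 against pairs 2 to 5 the count over all genes went from 7 to 0. Pathway medians ranged from 0.0084 to 0.52 (fatty acid oxidation) and 0.10 to 0.57 (citrate cycle) with a pair left out; their difference, -0.094 to 0.024. Member means that changed sign with a pair left out, always pair 1 and for Ppara also pair 4, ranged from -0.11 to 0.53 (Cpt2), -0.0046 to 0.45 (Crat), -0.022 to 0.65 (Acadm), -0.16 to 0.38 (Etfa), -0.066 to 0.38 (Etfb), -0.057 to 0.51 (Ppara), -0.011 to 0.57 (Cs), -0.21 to 0.45 (Idh1) and -0.15 to 0.77 (Idh3a). In male pairs alone means were -0.16 (Etfa), -0.0068 (Etfb), -0.15 (Idh3a) and -0.049 (Mdh1), and on channel 1 arrays Etfa was -0.13. The cause was not tested.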

Other observations

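The genes Acly, Fasn and Thrsp were picked out after their values were seen, for an order of pairs unlike that of most fatty acid oxidation genes. Acly, which splits citrate into acetyl-CoA in the cytosol, had log2 ratios of 2.29, 0.027, -1.78, 0.091 and 1.96 in pairs 1 to 5. Fasn, fatty acid synthase, had 3.36, -0.39, -2.13, 0.25 and 2.23. Thrsp, a lipogenic nuclear protein, had 2.40, -0.61, -1.53, 0.67 and 1.49. In pair 5 these 3 were high in the double-null mouse, where the fatty acid oxidation median was -0.19. Pck1, the enzyme of glyceroneogenesis and gluconeogenesis, stood at -1.50 there. Fasn and Thrsp belong to the white adipocyte list, whose median in pair 5 was -0.36. The double-null mouse of that pair was male and the apoE-null mouse female, so sex and genotype cannot be told apart in it. The difference between Acly, Fasn and Thrsp and the fatty acid oxidation genes was not tested.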
